A study of Mus musculus with 18 samples.

Results

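Aminoacyl-tRNA synthetases are the enzymes that load each amino acid onto its transfer RNA. The genes described here were chosen by name: a capital letter followed by ars, ars1 or ars2, together with Eprs, Qars, Farsa, Farsb and the scaffold genes Aimp1, Aimp2 and Eef1e1. The rule found 40 genes, of 40327 in the tables for the 129 genome and 39147 in those for the Cast genome. They were 18 cytosolic enzyme genes, 17 mitochondrial enzyme genes, 2 genes (Gars and Kars) whose products serve both compartments, and 3 scaffold genes.

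RNA was measured by sequencing in B cells carrying the surface receptor CD23, taken from the spleens of female F1 mice of the genotype 129S1/Cast, Xist+/-. The 3 naive samples had no treatment, and 3 samples were stimulated in culture for 24 h with 1 µM CpG, an oligonucleotide sensed by Toll-like receptor 9. None of these samples is labelled as cultured without CpG, so CpG and 24 h of culture cannot be told apart. A change after or with CpG, as written below, covers both. Every sample carried the Xist deletion, and by the labels the Cast X chromosome was the silent one throughout. Of 18 samples listed, these 6 were analysed and 12 were not analysed here. Nothing in the labels says that samples came from separate animals, so p-values measure only the spread between these samples, which may be technical.

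Each sample had a table of read counts for the 129 allele and another for the Cast allele. Cytosolic synthetases serve ribosomes in the cytosol, and several of them sit with Aimp1, Aimp2 and Eef1e1 in the multisynthetase complex. A separate set, encoded in the nucleus and imported, serves the small ribosome population inside mitochondria. An activated B cell grows and divides, which raises its demand for protein synthesis.

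A sample held 1987266 to 2928236 gene reads for the 129 allele and 2465073 to 3321753 for the Cast allele. Macrophage markers were present in the naive samples: their summed level was 3575 to 7433 CPM (reads per 1000000 of a gene total scaled by TMM factors) on the 129 allele, against 31.2 to 39.6 in stimulated samples. For the Cast allele it was 2926 to 6518 against 24.4 to 32.8. Of 16 markers listed, 15 were matched on each allele and 14 were tested, and all 14 were lower. Many had almost no reads after CpG, such as C1qa with 0, 1 and 0 and Axl with 2, 1 and 0 (129). Such genes passed a filter on low counts only with their naive samples, so their calls as lower add no support. Cd163 (129), and C1qa, Mertk and Axl (Cast), were at 0 in every stimulated sample. All 8 B cell markers were found on the 129 allele and 7 on the Cast allele. They summed to 9033 to 11288 CPM naive and 3204 to 3973 stimulated (129), and to 6664 to 8218 and 2134 to 2716 (Cast). The summed plasma cell markers stood at 431 to 643 CPM naive and 737 to 797 stimulated (129), and at 561 to 753 and 940 to 1001 (Cast), with no overlap. Of the 6, Prdm1, Xbp1 and Mzb1 were called higher on both alleles and Jchain was called lower on both. Irf4 was called lower on the 129 allele, with a log2 fold change of -0.51, and Sdc1 was not tested there. Prdm1 had 4, 4 and 0 naive against 48, 56 and 19 stimulated reads on the 129 allele. It passed a filter on low counts only with its stimulated samples, so that call as higher adds no support. T cell markers summed to 39.9 to 53.7 CPM naive and 4.67 to 8.86 stimulated on the 129 allele, and to 44.7 to 62.9 and 3.08 to 8.29 on the Cast allele. In the naive 129 sums Cd4 alone gave 36.1, 19.9 and 36.1 CPM. Cd3d, Cd3e and Cd3g had at most 6 reads in a sample there, so these sums mostly follow Cd4. Red cell markers, 2 of 6 matched, summed to 40.3 to 109 and 1.05 to 1.44 (129), and to 8.29 to 19.8 and 0 to 0.296 (Cast). In bulk RNA, fewer cells of a type and less RNA per cell cannot be told apart. What part these shifts have in the changes below was not tested.

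Most cytosolic synthetase genes were higher after 24 h of CpG on both alleles, and most mitochondrial ones moved less. On the 129 allele 13 of the 16 tested cytosolic genes were called higher and 0 lower, with a median log2 fold change of 1.70, or 3.26-fold. For the Cast allele 16 of 17 were called higher and 0 lower, with a median of 1.88, or 3.68-fold. Calls were made with the quasi-likelihood test of edgeR, at 0.05 after adjustment over all genes. By that rule 55.2% of all genes tested on the 129 allele were called (28.2% higher, 27.0% lower), and 62.2% of those tested on the Cast allele (30.7% higher, 31.5% lower). The median log2 fold change over all tested genes was -0.01 (129) and -0.04 (Cast).

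The 17 mitochondrial enzyme genes gave a median log2 fold change of 0.48 on each allele, or 1.40-fold (129) and 1.39-fold (Cast), over the 16 tested. On the 129 allele 5 were called higher, 0 lower and 11 neither. The share called higher thus lay near the 28.2% of all genes tested on that allele. For the Cast allele 7 were called higher, 1 lower and 8 neither, against 30.7% of all tested genes called higher. The medians of the cytosolic and mitochondrial genes differed by 1.22 (129) and 1.40 (Cast) on the log2 scale, a description of the 2 sets with no test. No cytosolic gene was lower at an unadjusted p of 0.05 on either allele, and 0 of the mitochondrial genes were on the 129 allele; DESeq2 also called 0 in these 3 cases. Both dual-location genes were called higher on each allele, as were 2 of the 3 scaffold genes.

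A filter on low counts left 37 of the 40 members for testing on the 129 allele and 38 on the Cast allele. All but Dars and Vars2 (129) had at least 10 reads in every naive sample, so a high level after CpG was not what brought the rest into the test. Vars, for valine, was not tested on either allele, with 1 to 7 reads per sample on the 129 allele and 0 to 3 on the Cast allele. Iars2, the mitochondrial isoleucine enzyme, was not tested on either allele and had at most 2 reads (129) and 9 reads (Cast) in a sample. Nars, for asparagine, was tested on the Cast allele only, since its 129 reads were 4, 9 and 6 naive and 11, 21 and 11 stimulated.

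**Figure D1:**
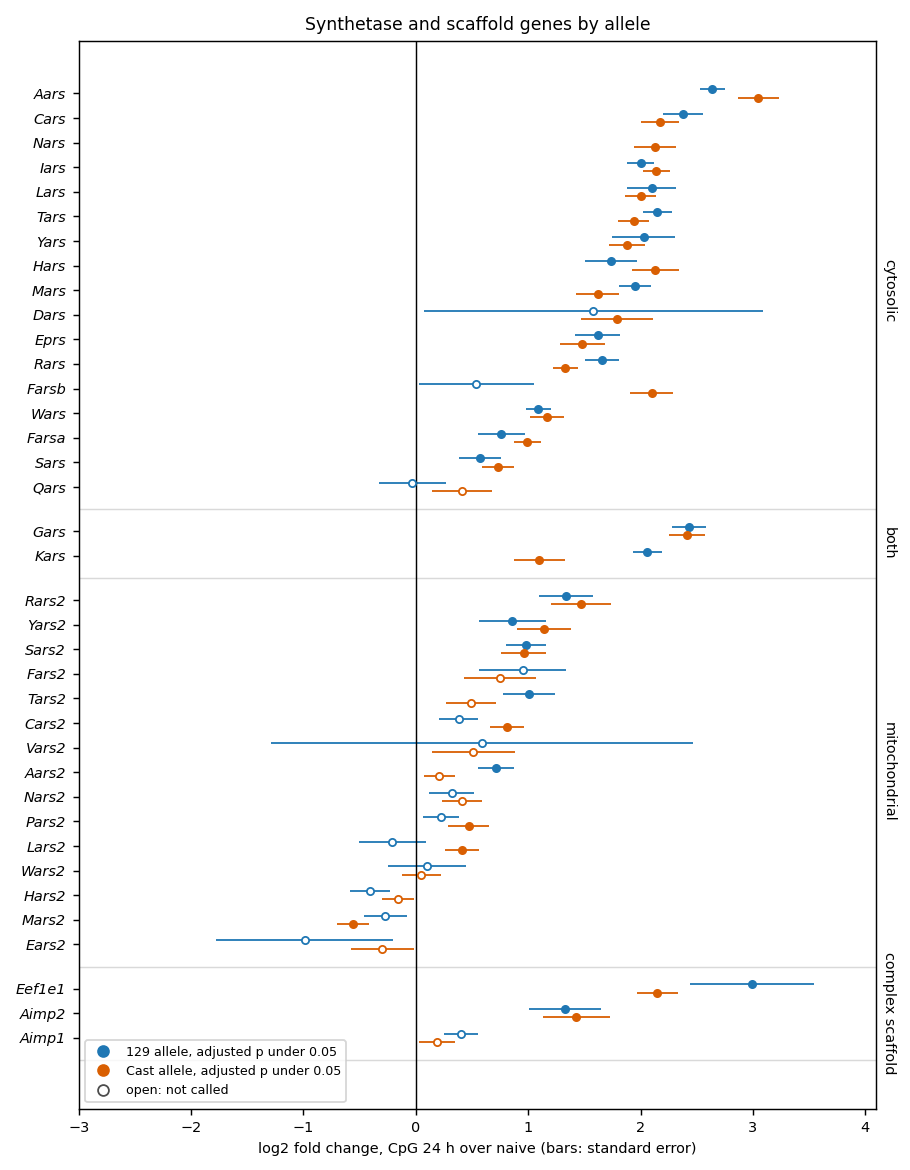
Log2 fold change after 24 h of CpG for the genes tested and reported on the 129 and the Cast allele, grouped by where the enzyme works. Points are edgeR estimates (open where not called) and bars their standard errors; cytosolic medians lie at 1.70 and 1.88, and mitochondrial medians at 0.48 on both alleles.

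With the replicate numbers as a block, the counts rose: 15 of 16 cytosolic and 6 of 16 mitochondrial genes were called higher on the 129 allele, and 2 mitochondrial genes were called lower. The blocked Cast counts were 16 of 17 and 9 of 16, with 1 lower. Calls over all genes rose too, to 65.1% of those tested on the 129 allele and 66.3% on the Cast allele. The same numbers do mark samples that deviate together. The block made 8 further member calls and removed none of the calls without it; each new call is given with its gene below.

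When the reads of both alleles were summed per sample, 16 of 17 cytosolic genes were called higher, with a median of 1.82 on the log2 scale, or 3.53-fold. Of the mitochondrial genes, 12 of 16 were called higher and 1 lower, with a median of 0.52, or 1.43-fold. In those sums 68.7% of all tested genes were called, 34.2% as higher and 34.4% as lower.

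The largest cytosolic rise was that of Aars, the alanine enzyme. Aars had 172, 194 and 155 reads in naive samples 1 to 3 and 1270, 1464 and 1363 in stimulated samples on the 129 allele. Its Cast reads were 174, 150 and 103 against 1300, 1711 and 1425. No sample of a group reached the other group. Separation of this kind was common, with no overlap in CPM for 64.8% (129) and 68.5% (Cast) of all tested genes. It therefore does not set apart the genes below. The log2 fold change of Aars was 2.64 (SE 0.11, edgeR adjusted p = 1.18e-05) on the 129 allele and 3.05 (SE 0.18, adjusted p = 1.57e-06) on the Cast allele.

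Gars, the glycine enzyme of both compartments, had 222, 251 and 155 naive and 1347, 1582 and 1299 stimulated reads on the 129 allele. Its Cast reads were 277, 218 and 168 against 1394, 1584 and 1455. Groups did not overlap, and the log2 fold changes were 2.43 (SE 0.15) and 2.41 (SE 0.16), with edgeR adjusted p = 2.24e-05 and 2.72e-06. The 2 estimates differed by less than their standard errors.

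Cars, for cysteine, had 50, 53 and 39 against 279, 374 and 278 reads (129) and 60, 55 and 48 against 266, 359 and 300 (Cast). Its log2 fold changes were 2.38 (SE 0.18) and 2.17 (SE 0.17). Iars, for isoleucine, had 253, 312 and 230 against 1208, 1402 and 1391 reads (129) and 245, 291 and 222 against 1304, 1474 and 1425 (Cast). All stimulated samples lay above all naive samples for both genes. Iars rose by 2.00 (SE 0.12) and 2.14 (SE 0.12) on the log2 scale. Lars, for leucine, had 289, 437 and 288 against 1382, 2256 and 1834 reads (129) and 366, 452 and 289 against 1723, 1992 and 1828 (Cast). Lars likewise showed no overlap and rose by 2.10 (SE 0.22) and 2.00 (SE 0.14). The edgeR adjusted p of these 3 genes was at most 0.000178 on either allele.

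Short stretches of the promoters are shown because 5 of the raised enzymes hold a match to the same pattern of letters. The C/EBP-ATF response element, bound by ATF4 and its partners when amino acids run short, was searched as TGATGNAAN on both strands. RefSeq windows of 250 bases before to 50 after the start site (GRCm38.p6) were found for 30 of the 40 members. The windows of Aars, Iars, Tars and Yars held a match, 4 of 11 cytosolic genes with a window, as did Gars, 1 of 2 dual-location genes. None of the 14 mitochondrial and none of the 3 scaffold windows did. Over all 32851 windows, 3.95% held a match. A match is a description of letters, not a site of binding. The stretches follow, 5′ to 3′ on the gene's strand, with the match in capitals.
Aars, chr8:111033682-111033761, plus strand, upstream of the gene: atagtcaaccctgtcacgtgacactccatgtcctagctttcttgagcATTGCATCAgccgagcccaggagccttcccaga
Gars, chr6:55037941-55038000, plus strand, the 60 bases before the start: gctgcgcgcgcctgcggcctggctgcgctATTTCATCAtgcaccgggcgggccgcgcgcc
Tars, chr15:11399659-11399718, minus strand, the 60 bases before the start: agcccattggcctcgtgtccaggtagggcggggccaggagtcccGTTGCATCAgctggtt
Iars, chr13:49682070-49682149, plus strand, 60 bases before to 20 after the start: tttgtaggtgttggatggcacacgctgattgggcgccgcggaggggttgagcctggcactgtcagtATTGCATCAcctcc
Yars, chr4:129189843-129189922, plus strand, 60 bases before to 20 after the start: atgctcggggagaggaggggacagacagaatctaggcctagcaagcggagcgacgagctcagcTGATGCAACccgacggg

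The match began 113 bases before the start in Aars, 31 in Gars and 16 in Tars, and lay just after the start in Iars and Yars. Aars held another match just after its start. The 5 genes had log2 fold changes of 2.00 to 2.64 on the 129 allele (median 2.15) and of 1.88 to 3.05 on the Cast allele (median 2.14). The 8 other cytosolic or dual-location genes with a window that were tested ranged from -0.03 to 2.06 (median 1.17) and from 0.41 to 2.10 (median 1.29). The ranges of these 2 sets overlapped, and no test was made of the difference. No window was at hand for 7 of the 20 cytosolic or dual-location genes (Cars, Hars, Lars, Nars, Rars, Vars and Wars), among them strongly raised ones. Those tested had a median of 1.74 (1.09 to 2.38) on the 129 allele and 2.06 (1.17 to 2.17) on the Cast allele, so the comparison of genes with and without a match covers only part of the class.

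The E-box CACGTG, the letters read by MYC and related factors, stood in 4 of 11 cytosolic windows (Aars, Farsb, Iars and Tars), in 1 of 14 mitochondrial windows (Ears2) and in 7.15% of all windows. The Aars stretch above holds its E-box in lower case, ahead of the capitals and not overlapping them. The NRF1 motif, of a factor that acts on many mitochondrial genes, stood in 2 cytosolic windows (Farsb and Tars), 2 mitochondrial windows (Iars2 and Mars2), Kars and Eef1e1, and in 4.60% of all windows. The ETS motif CCGGAAGT stood in Farsa, Mars, Rars2 and Aimp1, and in 3.89% of all windows. Rars2, a mitochondrial enzyme gene that rose, and Farsa, a cytosolic gene with a small rise, are shown for contrast, with the ETS match in capitals on the opposite strand.
Rars2, chr4:34614897-34614966, plus strand, 60 bases before to 10 after the start: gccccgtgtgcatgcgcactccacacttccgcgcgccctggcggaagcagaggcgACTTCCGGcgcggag
Farsa, chr8:84856926-84856985, plus strand, the 60 bases before the start: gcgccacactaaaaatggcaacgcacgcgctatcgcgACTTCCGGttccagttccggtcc

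Other cytosolic enzymes rose on both alleles by intermediate amounts. The log2 fold changes, 129 then Cast, were 2.15 and 1.94 for Tars (threonine), 2.03 and 1.88 for Yars (tyrosine), and 1.95 and 1.62 for Mars (methionine). They were 1.74 and 2.13 for Hars (histidine), 1.66 and 1.33 for Rars (arginine), and 1.62 and 1.48 for Eprs, which carries the glutamate and proline activities in 1 protein. Wars, for tryptophan, had the smallest of these rises, 1.09 and 1.17. The edgeR adjusted p of all 7 genes was at most 0.000634 on either allele. Nars, tested on the Cast allele alone, had 109, 136 and 69 against 572, 619 and 528 reads there, a rise of 2.13 (SE 0.19, edgeR adjusted p = 1.17e-05).

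The smallest cytosolic values were those of Qars, Sars and Farsa. Qars, for glutamine, had 42, 62 and 66 naive and 64, 93 and 55 stimulated reads on the 129 allele, and 43, 63 and 43 against 64, 112 and 73 on the Cast allele. The groups overlapped in CPM, with log2 fold changes of -0.03 (SE 0.30, edgeR adjusted p = 0.940) and 0.41 (SE 0.27, adjusted p = 0.207). Qars was the sole cytosolic gene tested on both alleles that was called on neither.

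Sars, for serine, had 73, 114 and 86 against 162, 164 and 184 reads (129) and 93, 101 and 80 against 172, 203 and 198 (Cast). It rose by 0.57 (SE 0.19, edgeR adjusted p = 0.0341) and 0.73 (SE 0.14, adjusted p = 0.00177) on the log2 scale. The 129 call of Sars was lost in 5 of the 6 fits that left a sample out, with an adjusted p of 0.0606 to 0.101. Its log2 fold change was 0.41 to 0.61 in those 5 fits. Farsa, the alpha chain of the phenylalanine enzyme, had 64, 51 and 54 against 143, 105 and 113 reads (129) and 205, 220 and 183 against 534, 466 and 520 (Cast). Its log2 fold changes were 0.76 (SE 0.21, edgeR adjusted p = 0.0171) and 0.99 (SE 0.12, adjusted p = 8.91e-05). The 129 call of Farsa ended without naive sample 2 (adjusted p = 0.0541) or stimulated sample 1 (adjusted p = 0.0582). On each allele the lowest stimulated count of either gene lay above its highest naive count.

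Farsb, the beta chain of the same enzyme, was called on the Cast allele and not on the 129 allele. Its Cast reads were 98, 155 and 113 naive and 510, 734 and 738 stimulated, a log2 rise of 2.10 (SE 0.19, edgeR adjusted p = 1.59e-05). Its 129 reads were 246, 101 and 123 against 467, 225 and 164, or 0.54 on the log2 scale (SE 0.51, adjusted p = 0.406). Sample 1 stood above its group on the 129 allele both before and after CpG. With the replicate block the 129 value was 0.51 (SE 0.18, edgeR adjusted p = 0.0262), so that Farsb was then called on both alleles.

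Dars, for aspartate, was likewise called on the Cast allele, where it had 243, 279 and 406 against 971, 1110 and 2075 reads. On the 129 allele it had 254, 236 and 3 against 825, 902 and 30 reads. The samples numbered 3, naive and stimulated, had almost no 129 reads of Dars. Summed over alleles the reads were 497, 515 and 409 against 1796, 2012 and 2105, so the totals of those samples lay near those of the others. The fold change of Dars was 1.79 on the log2 scale (SE 0.32, edgeR adjusted p = 0.000960) on the Cast allele and 1.58 (SE 1.51, adjusted p = 0.421) on the 129 allele. The 129 value had an adjusted p of 2.46e-07 with the replicate block (1.64, SE 0.16) and of 0.00143 without the samples numbered 3. The Cast call ended without the samples numbered 2 (adjusted p = 0.0582).

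Cytosolic enzymes inside and outside the multisynthetase complex were both mostly higher. Of the complex's enzymes (Eprs, Iars, Lars, Mars, Qars, Rars, Kars and Dars), 6 of 8 were called higher on the 129 allele, with a median of 1.80, and 7 of 8 on the Cast allele, with a median of 1.55. Outside the complex the counts were 9 of 10 (median 1.89) and 11 of 11 (median 2.10). No test was made between these 2 sets.

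Among the scaffold genes of the complex, Eef1e1 rose most. Eef1e1 had 80, 50 and 99 against 909, 338 and 1098 reads (129) and 32, 43 and 27 against 187, 184 and 200 (Cast). Groups did not overlap, and sample 2 was the lowest of its group on the 129 allele both times. Eef1e1 rose by 2.99 (SE 0.55, edgeR adjusted p = 0.00506) and 2.15 (SE 0.18, adjusted p = 8.91e-06). Without the samples numbered 1 the 129 call ended, at 2.85 (edgeR adjusted p = 0.0667).

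Aimp2, which links subunits of the complex, had 39, 28 and 24 against 134, 71 and 82 reads (129) and 16, 23 and 24 against 51, 79 and 87 (Cast). It rose by 1.33 (SE 0.32, edgeR adjusted p = 0.00905) and 1.43 (SE 0.30, adjusted p = 0.00252). Aimp1, a tRNA-binding scaffold, had 112, 147 and 107 against 186, 223 and 199 reads (129) and 134, 142 and 134 against 188, 166 and 241 (Cast). Aimp1 was called on neither allele, at 0.40 (SE 0.15, edgeR adjusted p = 0.0541) and 0.19 (SE 0.16, adjusted p = 0.328). With the replicate block its 129 value was called (edgeR adjusted p = 0.0279).

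**Figure D2:**
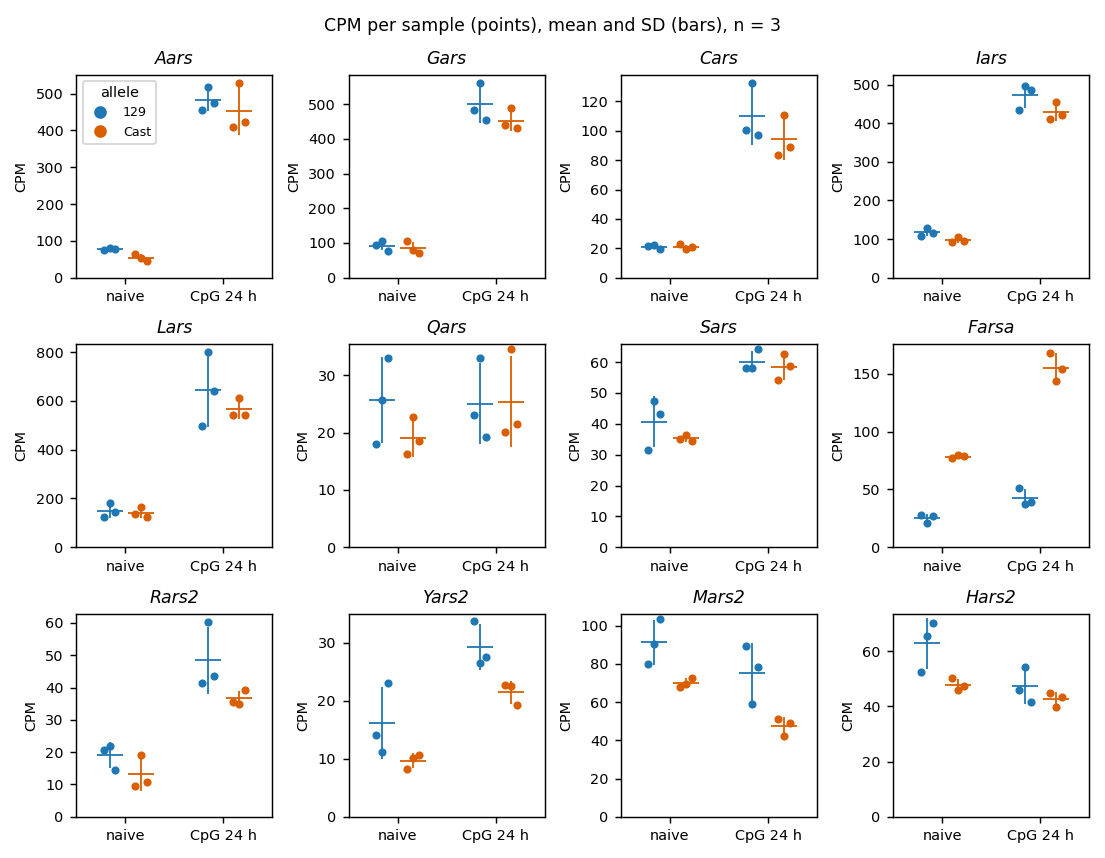
CPM in each naive and stimulated sample for 8 cytosolic or dual-location genes and 4 mitochondrial genes on the 129 and Cast alleles, on linear axes that start at 0. Points are samples, and bars give the mean and SD (n = 3); the groups are far apart for Aars, overlap for Qars, and for Mars2 are lower after CpG on the Cast allele.

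Of the 16 mitochondrial genes tested, Rars2, Sars2 and Yars2 were called higher on both alleles. Rars2, for arginine, had 48, 53 and 29 against 115, 170 and 125 reads (129) and 25, 53 and 25 against 113, 113 and 133 (Cast). It rose by 1.34 (SE 0.24, edgeR adjusted p = 0.00252) and 1.47 (SE 0.27, adjusted p = 0.00110). Sars2, for serine, had 60, 80 and 48 against 154, 164 and 145 reads (129) and 100, 85 and 81 against 162, 262 and 234 (Cast). Sars2 rose by 0.98 (SE 0.18, edgeR adjusted p = 0.00286) and 0.96 (SE 0.20, adjusted p = 0.00209), 2 estimates closer than their standard errors. Yars2, for tyrosine, had 33, 27 and 46 against 94, 75 and 79 reads (129) and 22, 28 and 25 against 72, 73 and 65 (Cast). Its log2 fold changes were 0.86 (SE 0.30, edgeR adjusted p = 0.0416) and 1.14 (SE 0.24, adjusted p = 0.00223). The 129 call of Yars2 was lost in 5 of the 6 fits that left a sample out, with an adjusted p of 0.0674 to 0.116.

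Ears2, Mars2 and Hars2 had the smallest mean values. Mars2, for methionine, had 186, 218 and 206 against 248, 166 and 225 reads (129) and 180, 193 and 169 against 163, 137 and 166 (Cast). Mars2 fell by 0.56 on the log2 scale on the Cast allele (SE 0.14, edgeR adjusted p = 0.00674) and had a value of -0.27 on the 129 allele (SE 0.19, adjusted p = 0.249). It was the sole member called lower on an allele, and the call ended without the samples numbered 3 (adjusted p = 0.0591). Hars2, for histidine, had 122, 158 and 140 against 128, 153 and 119 reads (129) and 133, 127 and 110 against 142, 129 and 146 (Cast). Its log2 values were -0.41 (SE 0.18, edgeR adjusted p = 0.0859) and -0.16 (SE 0.14, adjusted p = 0.342), and the 129 value was called lower with the replicate block (adjusted p = 0.0485). Reads of near-equal number mean a lower CPM here, since stimulated libraries were larger.

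Ears2, for glutamate, had 65, 17 and 16 against 39, 6 and 16 reads (129) and 45, 65 and 66 against 41, 70 and 71 (Cast). Sample 1 carried most of the 129 reads in both groups. Ears2 was called on neither allele, at -0.99 (SE 0.79, edgeR adjusted p = 0.330) and -0.30 (SE 0.28, adjusted p = 0.368). With the replicate block the 129 value of -1.01 was called lower (adjusted p = 0.0270).

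A further 5 mitochondrial genes were called higher on a single allele. On the 129 allele these were Aars2 (alanine) and Tars2 (threonine). Aars2 had 113, 98 and 97 against 183, 236 and 217 reads (129) and 135, 159 and 120 against 200, 217 and 186 (Cast), with log2 values of 0.71 (SE 0.16, edgeR adjusted p = 0.00649) and 0.21 (SE 0.14, adjusted p = 0.228). Tars2 had 66, 89 and 48 against 136, 208 and 165 reads (129) and 84, 95 and 60 against 106, 179 and 137 (Cast). Tars2 stood at 1.01 (SE 0.23, edgeR adjusted p = 0.00762) and 0.49 (SE 0.22, adjusted p = 0.0787), and its Cast value was called with the replicate block (adjusted p = 0.0374). Its 129 call ended without the samples numbered 3 (edgeR adjusted p = 0.0501).

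The single-allele calls for Cast were Cars2 (cysteine), Pars2 (proline) and Lars2 (leucine). Cars2 had 95, 76 and 88 against 147, 141 and 139 reads (129) and 174, 180 and 166 against 335, 453 and 363 (Cast), at 0.38 (SE 0.17, edgeR adjusted p = 0.103) and 0.81 (SE 0.15, adjusted p = 0.00116). Pars2 had 136, 142 and 88 against 177, 176 and 178 reads (129) and 64, 72 and 69 against 117, 106 and 137 (Cast), at 0.22 (SE 0.16) and 0.47 (SE 0.18, edgeR adjusted p = 0.0435). Both had more reads in each stimulated sample than in each naive sample on the 2 alleles. Lars2 had 28, 26 and 19 against 28, 31 and 20 reads (129) and 119, 107 and 91 against 172, 158 and 202 (Cast), at -0.21 (SE 0.30) and 0.41 (SE 0.15, edgeR adjusted p = 0.0425). The Cast calls of Pars2 and Lars2 each ended in 4 of the 6 fits that left a sample out, and with DESeq2 and with upper-quartile factors. A call on a single allele does not show that the alleles differed; the test of that difference is given below.

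Vars2, for valine, had 87, 6 and 0 against 155, 13 and 1 reads on the 129 allele and 118, 302 and 192 against 188, 487 and 430 on the Cast allele. Samples 2 and 3 had almost no 129 reads of Vars2 in either group. It was called on neither allele, at 0.59 (SE 1.88) and 0.51 (SE 0.37), and the Cast value of 0.50 was called with the replicate block (edgeR adjusted p = 0.00301). The others called on neither allele were Fars2 (phenylalanine; 0.95 and 0.75), Nars2 (asparagine; 0.32 and 0.41) and Wars2 (tryptophan; 0.10 and 0.05). Fars2 was called on the 129 allele with the block (0.92, edgeR adjusted p = 0.0396). Wars2 changed sign on both alleles when upper-quartile factors scaled the libraries.

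Where a cytosolic and a mitochondrial enzyme serve the same amino acid, the cytosolic gene usually had the larger log2 fold change. This held for 12 of 15 pairs on the 129 allele, with a median difference of 1.17, and for 14 of 16 on the Cast allele, with a median of 1.35. The alanine pair, Aars minus Aars2, differed by 1.94 (SE 0.19) and 2.84 (SE 0.23). The methionine pair, Mars minus Mars2, differed by 2.22 (SE 0.23) and 2.17 (SE 0.23). The histidine pair, Hars minus Hars2, differed by 2.15 and 2.29.

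The serine pair ran the other way on both alleles: Sars minus Sars2 was -0.41 (SE 0.26) and -0.24 (SE 0.24). In the Cast tables the arginine pair, Rars minus Rars2, was -0.15 (SE 0.29). These 3 differences were under 2 standard errors. Pairs that share Fars2, the single mitochondrial phenylalanine enzyme, are not independent of each other; on the 129 allele Farsa minus Fars2 was -0.19 and Farsb minus Fars2 was -0.41. The pairs that share Eprs are not independent either, and both count as cytosolic larger. Eprs minus Ears2 was 2.61 (129) and 1.78 (Cast), and Eprs minus Pars2 was 1.40 and 1.01.

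Summed over the class, cytosolic synthetase reads went from 1036 ± 97.7 to 3589 ± 397 CPM on the 129 allele (SD, n = 3 each), or 3.46-fold. Their Cast sums went from 1098 ± 36.3 to 3950 ± 245 CPM, or 3.60-fold. Mitochondrial synthetase reads went from 513 ± 35.9 to 667 ± 55.5 CPM (129) and from 604 ± 38.1 to 821 ± 101 CPM (Cast), or 1.30-fold and 1.36-fold. Mitochondrial genes therefore took a smaller part of all synthetase reads after CpG. Their share was 32.3%, 27.7% and 32.4% in the naive and 15.5%, 11.9% and 13.9% in the stimulated samples on the 129 allele. For Cast it was 32.3%, 34.2% and 33.9% against 14.8%, 16.5% and 15.4%. The groups did not overlap on either allele, and these are shares of reads, not corrected for gene length.

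**Figure D3:**
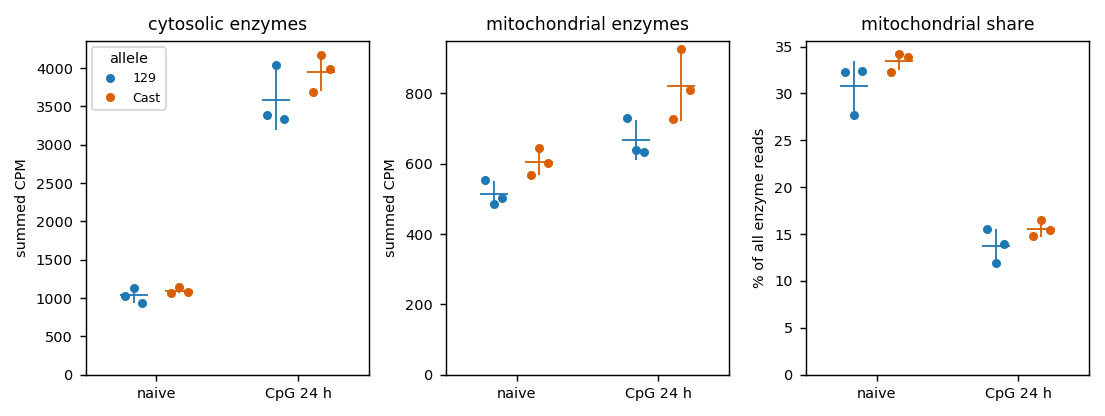
Summed CPM of the cytosolic and mitochondrial synthetase genes, and the mitochondrial share of synthetase reads in percent, for each naive and stimulated sample on the 129 and Cast alleles. Points are samples and bars the mean and SD (n = 3); cytosolic sums rose to 3589 (129) and 3950 (Cast) on average, and the mitochondrial share fell from 30.8% to 13.8% and from 33.5% to 15.6%.

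The Cast share of a gene is its Cast reads over its reads from both alleles. Among the 38 members that reached 10 reads per sample over both alleles, its median stood at 51.0% ± 0.973 naive and 51.9% ± 0.661 stimulated (SD, n = 3 each), a difference of 0.907 percentage points. Over 8562 autosomal genes it was 51.7% and 51.6%. The median synthetase gene was thus read almost equally from the 2 alleles, before and after CpG. Farsa (78.2% naive, 80.9% stimulated), Lars2 (81.4% and 86.9%) and Nars (94.1% and 97.6%) leaned to Cast in all 6 samples. The median Cast share of the 10 nearest genes with enough reads was 79.2% to 82.9% around Farsa. It was 64.4% to 75.6% around Lars2 and 52.1% to 55.5% around Nars. The neighbours of Farsa thus shared its lean, and those of Lars2 did so in part.

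Whether the ratio of the alleles changed with CpG was tested as an interaction in edgeR. Of 38 members tested, 0 were called, the smallest adjusted p being 0.175. Before adjustment 6 of the 38 (15.8%) had p under 0.05: Aars and Nars toward Cast, and Rars, Aars2, Tars2 and Kars toward 129. Over all genes 11.4% did so, and 0.917% were called after adjustment, so the share of members lay near that of all genes. With the replicate block 7.52% of all genes and 4 of the 38 members were called: Farsb, Aars, Kars and Eef1e1. This share of members, too, lay near that of all genes.

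Kars, the lysine enzyme of both compartments, had 77, 70 and 58 against 342, 352 and 386 reads on the 129 allele and 38, 48 and 44 against 142, 90 and 122 on the Cast allele. It rose by 2.06 (SE 0.13) and 1.10 (SE 0.23), with edgeR adjusted p = 2.31e-05 and 0.00252. Its Cast share was 33.0%, 40.7% and 43.1% in naive and 29.3%, 20.4% and 24.0% in stimulated samples, with no overlap. The change of the ratio was -0.97 on the log2 scale with the block (edgeR adjusted p = 0.00356), toward the 129 allele.

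The Cast share of Aars was 50.3%, 43.6% and 39.9% naive and 50.6%, 53.9% and 51.1% stimulated (0.41 with the block, edgeR adjusted p = 0.0309). The groups did not overlap, but the samples numbered 1 had 95% Wilson intervals that did, 45.0% to 55.5% and 48.7% to 52.5%. Shares of other members, such as Iars and Rars, did not overlap either, and how common this was over all genes was not counted. Farsb went from 28.5%, 60.5% and 47.9% to 52.2%, 76.5% and 81.8%, higher in each numbered pair though the groups overlapped (1.59 with the block, edgeR adjusted p = 4.43e-11). Eef1e1 went from 28.6%, 46.2% and 21.4% to 17.1%, 35.2% and 15.4%, lower in each pair (-0.74 with the block, edgeR adjusted p = 0.0223). Without the block none of these passed the test.

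In some genes the samples of a number stood apart in the same way before and after CpG. The Cast share of Dars was 99.3% and 98.6% in the samples numbered 3 and between 48.9% and 55.2% in the rest. That of Vars2 was 57.6% and 54.8% in the samples numbered 1 and at least 97.4% in the others. Ears2 was at 40.9% and 51.2% in the samples numbered 1 and at 79.3% to 92.1% in the others.

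The median share of the 10 nearest genes with enough reads moved in part with these. Around Vars2 it was 51.1% and 54.1% in the samples numbered 1 and 63.7% to 68.2% in the others. Around Dars it was 61.5% and 58.2% in the samples numbered 3 and 51.8% to 54.9% in the rest. Around Ears2 it was 47.1% and 48.4% in the samples numbered 1 and 52.7% to 56.3% in the others. Why samples of a number stood apart was not tested.

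**Figure D4:**
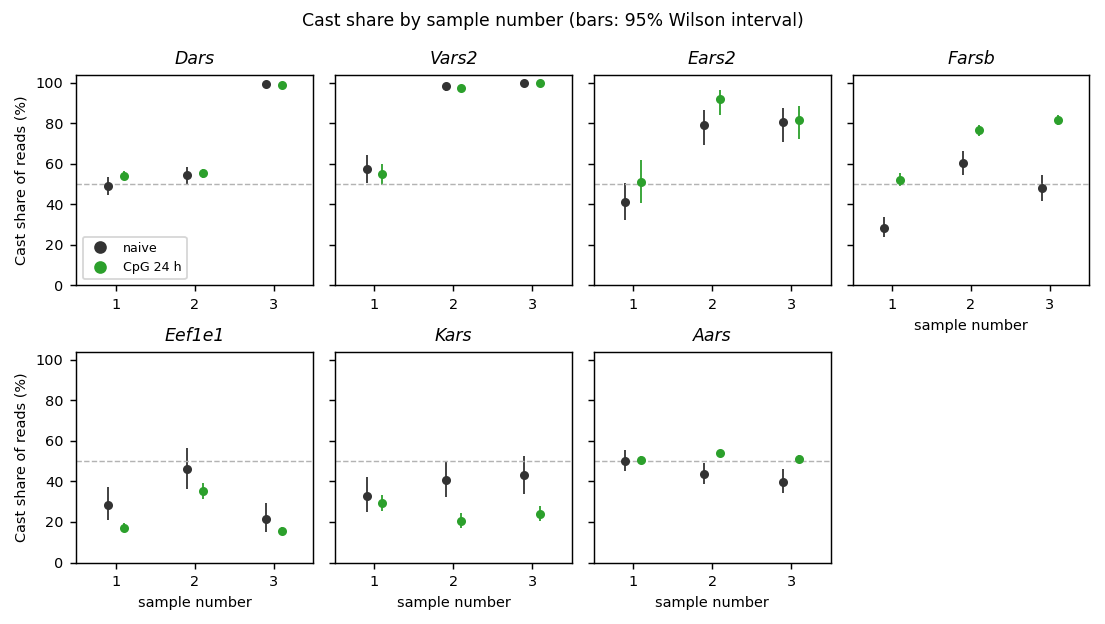
Cast share in percent of 7 genes in each sample number, naive and stimulated, with 95% Wilson intervals that cover counting error only. Points are samples; Dars lies at 99.3% and 98.6% in the samples numbered 3, while Kars moves from 33.0% to 43.1% in naive samples down to 20.4% to 29.3% in stimulated samples.

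Genes next to the synthetases in the path from amino acid to protein were read as lists. Over all tested genes 28.2% were called higher and 27.0% lower (129), and 30.7% and 31.5% (Cast). In a list of Atf4, whose product raises amino acid supply and tRNA charging under stress, and its targets, 15 of 18 tested genes were called higher and 1 lower on each allele, out of 23 listed. Without Atf4 these were 14 of 17 and 1. The medians were 2.29 (129) and 2.07 (Cast), also with genes near 0 reads held at their bound. Pycr1, the last step of proline synthesis, had 3, 2 and 1 against 52, 74 and 54 reads (129) and 0, 3 and 1 against 38, 57 and 45 (Cast). Against a floor of 3 reads per library it was at least 15.8-fold and 12.2-fold higher. Some calls in this list were close to fixed in advance. Pycr1 on both alleles, and Nupr1 and Trib3 on the 129 allele, had under 10 reads in every naive sample. Asns (129) had 7 reads in naive sample 1. These genes passed the filter on low counts only with their stimulated samples, so their calls as higher add no support. Mthfd2, of mitochondrial folate metabolism, rose by 4.50 and 4.59 on the log2 scale, with edgeR adjusted p = 2.93e-05 and 2.69e-06. Ddit4, an inhibitor of mTORC1, fell by 2.87 and 2.33, with edgeR adjusted p = 0.0309 and 0.0156. The samples numbered 2 did not share that fall: Ddit4 stood at 15.4 CPM naive and 15.2 stimulated there on the 129 allele, and at 10.8 and 19.1 on the Cast allele, where the groups overlapped. The gene Atf4 was higher by 1.15 (edgeR adjusted p = 0.00610) and 0.79 (adjusted p = 0.0148).

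Accessory factors of tRNA charging moved little: 2 of 12 tested were called higher and 0 lower (129), and 3 higher and 1 lower (Cast), with medians of 0.43 and 0.34. The shares called higher lay below those of all tested genes, 28.2% (129) and 30.7% (Cast). Ptrh2, a peptidyl-tRNA hydrolase, rose by 1.51 and 1.91, and Aarsd1, an editing protein for mischarged alanine tRNA, by 1.26 and 0.87. Of 30 tested genes for tRNA processing and export, 18 were called higher and 0 lower (129), and 22 higher and 1 lower (Cast), with medians of 1.18 and 1.25. Ddx1, a helicase of the tRNA ligase complex, rose by 2.56 and 2.44, and Mettl1, a tRNA guanine methyltransferase, by 2.02 and 2.03.

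Translation factors were read by compartment. Of 7 tested cytosolic elongation and initiation factors, 7 were called higher (129) and 6 (Cast), with medians of 1.68 and 1.27. Eif5a rose by 2.54 and 2.50, and Eif2s1, a subunit of the factor that delivers the initiator tRNA, by 2.32 and 1.49. Of 9 tested mitochondrial translation factors, 3 were called higher and 1 lower (129), and 6 higher and 2 lower (Cast), with medians of 0.35 and 0.77. On the 129 allele the share called higher lay near the 28.2% of all tested genes. Gfm1, a mitochondrial elongation factor, rose by 2.25 and 1.73, and Tsfm, the exchange factor of another, by 1.58 and 1.74. Mtif3, a mitochondrial initiation factor, fell by 0.74 and 0.60. The genes of these lists named here with no p had an edgeR adjusted p of at most 0.0207 on either allele.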

How the data were processed

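The authors deposited whole-number read counts per gene with no normalization, as the values show, in 1 table per sample and strain (12 tables; strain annotations by their gene identifiers). Per the labels' protocols, RNA was isolated with TRIzol and libraries were made with a stranded total RNA kit. The submitters' processing notes name STAR, featureCounts, Subread 2.0.0 and the build mm10, with no role; how a read was given to a strain is not given in the sources used here. Summary rows were left out of all totals; the no-feature row held 44.5% to 67.1% of aligned reads over both sets of tables.

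Each strain's tables were fitted with edgeR 4.0.16 in R 4.3.3 (quasi-likelihood, robust, TMM, filterByExpr, Benjamini-Hochberg over all genes), naive against CpG, and checked on simulated data. The interaction used 28374 genes matched by name and chromosome, at least 10 reads over both alleles in 3 samples, and a term per sample. DESeq2 1.42.0 was an alternative. Same-numbered samples deviated together (correlations 0.560, 0.443 and 0.608 on the 129 allele; 0.228, 0.163 and 0.246 on the Cast allele), by the data and not the labels, so the replicate block is given where it changes a call. Promoters came from RefSeq (GRCm38.p6).

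Reads per sample are given for the 5 largest and 3 smallest cytosolic or dual-location genes, the 4 largest and 3 smallest mitochondrial genes (mean log2 fold change of both alleles), the scaffolds, and genes whose calls differ between alleles or in the interaction; Nars, Vars2, Atf4 and the promoters shown were added after their values were seen. A mitochondrial member that this rule selects is not reported here on its own, though class counts, medians and sums include it. For each list the 2 largest rises and the largest fall called on both alleles are named. Members and lists were chosen with earlier results of these data known. Intervals cover counting error only, since copies made by PCR were not told apart.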

Additional observations from a re-analysis of the deposited data

How the results depend on the processing

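The counts of cytosolic genes called higher held under every alternative run: 13 on the 129 allele became 11 to 16 under other settings, and 16 on the Cast allele stayed at 16. For the 129 allele the 16 came with alleles summed, a setting that reads both alleles and neither alone. The mitochondrial counts were less steady. On the 129 allele, 5 called higher became 3 with a minimum log2 change of 0.5 and 12 with alleles summed, and 0 called lower became 1 with upper-quartile factors, 1 with alleles summed and 2 with the replicate block. On the Cast allele, 7 called higher became 12 with alleles summed and 5 with DESeq2, with upper-quartile factors or with the minimum change of 0.5, and 1 called lower became 0 with that minimum. Pars2 and Lars2 (Cast) were lost with DESeq2 (adjusted p = 0.0911 and 0.0985) and with upper-quartile factors (edgeR adjusted p = 0.127 and 0.145). Sars (129) was lost with both (adjusted p = 0.0518 and 0.102), and Yars2 (129) with upper-quartile factors (adjusted p = 0.0736). Lars2 stood at -0.21 on the 129 allele and at 0.35 with alleles summed (edgeR adjusted p = 0.0471). In that sum 80.5% to 91.0% of the reads were Cast, so the 129 value itself did not reverse. The cytosolic median minus the mitochondrial median was 1.18 to 1.30 (129) and 1.30 to 1.42 (Cast) under other settings. Upper-quartile factors moved the median of all genes to -0.16 (129) and -0.17 (Cast). The cause of these shifts was not tested.

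Leaving out a sample gave 11 to 12 (129) and 16 (Cast) cytosolic genes called higher, 4 to 5 and 5 to 7 mitochondrial genes called higher, and median differences of 1.09 to 1.59 and 1.30 to 1.54. Leaving out a replicate number in both groups, an alternative chosen after seeing the data, gave 11 to 12 and 15 to 16 cytosolic genes, 4 to 5 on each allele for mitochondrial genes, and median differences of 1.04 to 1.36 and 1.30 to 1.48; the Cast count was 4 without the samples numbered 1, and Mars2 was no longer called lower (0 genes) without those numbered 3. The replicate block took the interaction from 0 to 4 members and changed no other call than those named with their genes. The difference in median Cast share, 0.907, ranged from 0.431 to 1.4 without a sample, from 0.448 to 1.73 without a number, and from 0.825 to 1.69 under other settings. Vars and Iars2 on both alleles, and Nars on the 129 allele, had too few reads to test; over both alleles Nars had 75 to 145 naive and 539 to 640 stimulated reads, 92.0% to 98.1% of them Cast.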
